A study of Homo sapiens with 21 samples.

Results

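BT-TPR1 is a pool of BT474 cells that was resistant to the antibodies trastuzumab and pertuzumab given together. BT474 is an established human breast cancer cell line whose ERBB2 gene, which encodes the receptor HER2, is amplified. RNA of BT-TPR1 was compared with RNA of the parental BT474 cells, which received no antibody, over all genes of the deposited count table. The comparison took the libraries whose labels name either group, 3 of BT-TPR1 and 3 of untreated BT474, or 6 of the 21 libraries of the series. All of them come from the BT474 background, described in the labels as HER2-positive. The resistant cells were kept for 7 days without antibody before harvest, so the comparison is between cells in antibody-free medium. A second pool resistant to both antibodies, BT-TPR2, and a pair resistant to trastuzumab alone, BT-TR1 and BT-TR2, had been kept for 7 days in the same way, with 3 libraries each. BT-TPR1 is 1 pool, and its libraries are not separate derivations of resistance. The labels do not say whether replicates were separate cultures, so each p-value measures only the spread between replicate libraries, which may be technical. That spread was estimated over all 21 libraries of the series. Of 37355 genes in the table, 17650 passed the filter on low counts and were tested.

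HER2 is a receptor tyrosine kinase with no known ligand of its own. It signals as a dimer with EGFR, HER3 or HER4, and so activates the PI3K and AKT pathway and the ERK pathway. Trastuzumab binds the part of HER2 closest to the membrane, and pertuzumab binds the arm through which HER2 pairs with its partners. Cells that grow through both antibodies can differ from their parents in the receptors they carry, in what they secrete and in how they attach to their surroundings, and these gene groups are described in turn.

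Total counts ran from 19516112 to 21746391 in untreated BT474 and from 14122216 to 16737677 in BT-TPR1. Mitochondrially encoded genes took 18.18% to 24.51% of counts in the untreated libraries and 13.69% to 17.8% in BT-TPR1. Levels below are CPM, read counts relative to the TMM-normalized library size. In both groups replicate 1 stood apart: across genes, its deviation from the group mean correlated with a gene's GC content at r = 0.664 in untreated cells and 0.646 in BT-TPR1, against -0.587 to -0.314 in the other libraries of both groups. Genes are not independent replicates, so these correlations carry no p. All libraries of both groups carried luminal breast markers, with 10 of 11 listed markers tested and a summed level of 11740 to 16740 CPM in untreated cells and 8926 to 12540 CPM in BT-TPR1. Of these markers GATA3, FOXA1 and EPCAM fell, 0 rose and KRT8, KRT18, KRT19, CDH1, SPDEF, CLDN4 and ERBB2 did not pass. The EPCAM call ended without untreated replicate 2 (adjusted p = 0.057, range 0.000305 to 0.057). The basal or myoepithelial keratin KRT5 and the leukocyte gene PTPRC had no count in any of the 6 libraries. The summed leukocyte markers lay between 0.5444 and 0.6205 CPM in untreated cells and between 0.1922 and 0.3146 CPM in BT-TPR1. Summed basal or myoepithelial markers lay at 13.13 to 14.79 CPM and 6.036 to 9.312 CPM in the same order, fibroblast markers at 25.91 to 46.64 CPM and 19.88 to 35.13 CPM and endothelial markers at 9.722 to 18.57 CPM and 6.355 to 9.198 CPM, and their part in the results below was not tested. RNA of whole cultures cannot tell fewer cells of a kind from less RNA per cell.

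BT-TPR1 differed from untreated BT474 at 4815 of the tested genes, 27.3% of them (edgeR's quasi-likelihood test, Benjamini-Hochberg adjusted p under 0.05). Of these, 2280 genes rose (12.9%) and 2535 fell (14.4%), and the median log2 fold change over all tested genes was -0.003. Counts of rises and falls in the gene lists below stand against these shares. Replicate 1 deviated alike in both groups, while replicates 2 and 3 were not set apart by their numbers. With replicate number as a block 4102 genes rose and 4262 fell, the background for block counts of the gene lists below. The count was then 8364 (47.4%), with all 4815 genes called there too. With each library corrected for the GC content of its genes, the GC correction, it was 6894 (39.1%). Without BT-TPR1 replicate 2 the count was 3156, and with only these 6 libraries in the fit it was 3111. Scaling by library size alone put the median of all genes at 0.14 and turned the split to 2886 higher and 1684 lower (25.9% called), so small changes below are relative to the TMM scale. Changes of at least 2-fold were fewer among rises than falls, with 351 genes rising and 920 falling that far. Of the tested genes, 7191 (40.7%) had no overlap between the 3 and 3 libraries. Members of the gene lists below were mostly picked because they were called. A lack of overlap among them largely follows from that choice and adds no support to their calls.

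Among genes with a mean of at least 5 CPM and no overlap, the largest rise was that of SCGB2A2. The rule took only genes without overlap, so its absence in the 12 rises and 12 falls adds no support. This gene (ENSG00000110484.6, chr11:62270155-62273156 on hg38, as are all gene positions below), which encodes the secreted breast protein mammaglobin, stood at 10.1, 11.5 and 8.89 CPM in the untreated libraries and at 472, 535 and 479 CPM in BT-TPR1. Its log2 fold change was 5.61 ± 0.17 (SE, adjusted p = 3.43e-14), and the groups were far from overlapping. PPP1R1B (chr17:39626740-39636626), a phosphatase inhibitor gene that lies beside ERBB2, stood at 2.14, 2.02 and 2.63 CPM in untreated cells and 101, 92.9 and 95.5 CPM in BT-TPR1. It rose by 5.401 ± 0.17 on the log2 scale (SE, adjusted p = 1.11e-13), with each BT-TPR1 library above every untreated one. Counts per gene do not tell the isoforms of PPP1R1B apart, so which of them rose was not examined. MUC5AC (chr11:1157953-1201138), a gel-forming mucin gene, had 14, 3 and 8 counts in the untreated libraries and 239, 172 and 256 in BT-TPR1. These counts gave levels of 0.769, 0.155 and 0.363 CPM and 13.7, 10.8 and 16.4 CPM, a change of 4.99 ± 0.36 (SE, adjusted p = 8.94e-09).

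S100P, a calcium-binding protein gene of the S100 family, stood at 2.75, 1.66 and 1.68 CPM in untreated cells and 29.3, 24.5 and 23.6 CPM in BT-TPR1, a change of 3.68 ± 0.27 (SE). Its relative S100A4, which encodes a partner of cytoskeletal proteins, went from 4.23, 3.36 and 4.26 CPM to 32.4, 28.1 and 29.3 CPM (2.92 ± 0.19, SE). Neither gene overlapped between the groups, which the rule required. AZGP1 (zinc-alpha-2-glycoprotein), CST1 (cystatin SN), CXCL17 (a chemokine-like secreted protein) and VEGFB (a vascular growth factor) also code for secreted proteins. Their log2 fold changes were 2.84, 2.58, 2.07 and 2.37. The other genes among the 12 largest rises were BHLHE41, a transcriptional repressor of the circadian clock, at 2.41, the G protein subunit gene GNB4 at 2.197, and ASS1, argininosuccinate synthase, at 2.05. VEGFB stood at 4.56, 1.76 and 2.72 CPM in untreated cells and 16.6, 14.3 and 15.5 CPM in BT-TPR1, and its untreated replicate 1 was the highest of the 3.

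By the same rule the largest fall was that of FSTL5. This gene (chr4:161383897-162164035), a follistatin-like gene, had 178, 266 and 217 counts in the untreated libraries and 1, 3 and 3 in BT-TPR1, and its fitted log2 fold change of -6.21 ± 0.36 (SE) rests on those few counts. PCDH7 (chr4:30720415-31146805), a protocadherin gene of cell adhesion, stood at 21.8, 22.8 and 17.7 CPM in untreated cells and 1.15, 0.944 and 0.833 CPM in BT-TPR1 (-4.396 ± 0.25, SE, adjusted p = 4.25e-10). No BT-TPR1 library came near the lowest untreated one. SYT1, the calcium sensor of synaptic vesicle release, fell by 4.30 on the log2 scale, from 22.3, 29.3 and 23.9 CPM to 1.21, 1.01 and 1.602 CPM. SERPINI1, neuroserpin, an inhibitor of tissue plasminogen activator, went from 35.6, 40.9 and 35.2 CPM to 2.01, 1.95 and 2.95 CPM (-4.01 ± 0.22, SE). Both genes were separated between the groups by more than the spread within either.

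FSTL1, a secreted follistatin-like glycoprotein, stood at 112, 122 and 106 CPM in untreated cells and 6.899, 6.48 and 8.59 CPM in BT-TPR1 (-3.95 ± 0.17, SE, adjusted p = 7.35e-12). ADAMTS1, a secreted protease that cleaves proteoglycans, stood at 63.6, 61.1 and 49.3 CPM and 4.14, 2.77 and 4.42 CPM in the same order (-3.94 ± 0.17, SE). ANTXR1, a collagen-binding membrane protein also known as an anthrax toxin receptor, was at 110.3, 134 and 106 CPM in untreated cells and 9.83, 8.305 and 12.1 CPM in the pool (-3.54 ± 0.15, SE). All 3 genes fell, without overlap by the same rule. The rest of the 12 were P2RY10, a G protein-coupled receptor gene (-3.93), the lipid transporter gene ABCA4 (-3.67), SHISA2 (-3.42), GPC6, a heparan sulfate proteoglycan of the cell surface (-3.41), and GPX8, a peroxidase of the endoplasmic reticulum (-3.398).

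**Figure D1:**
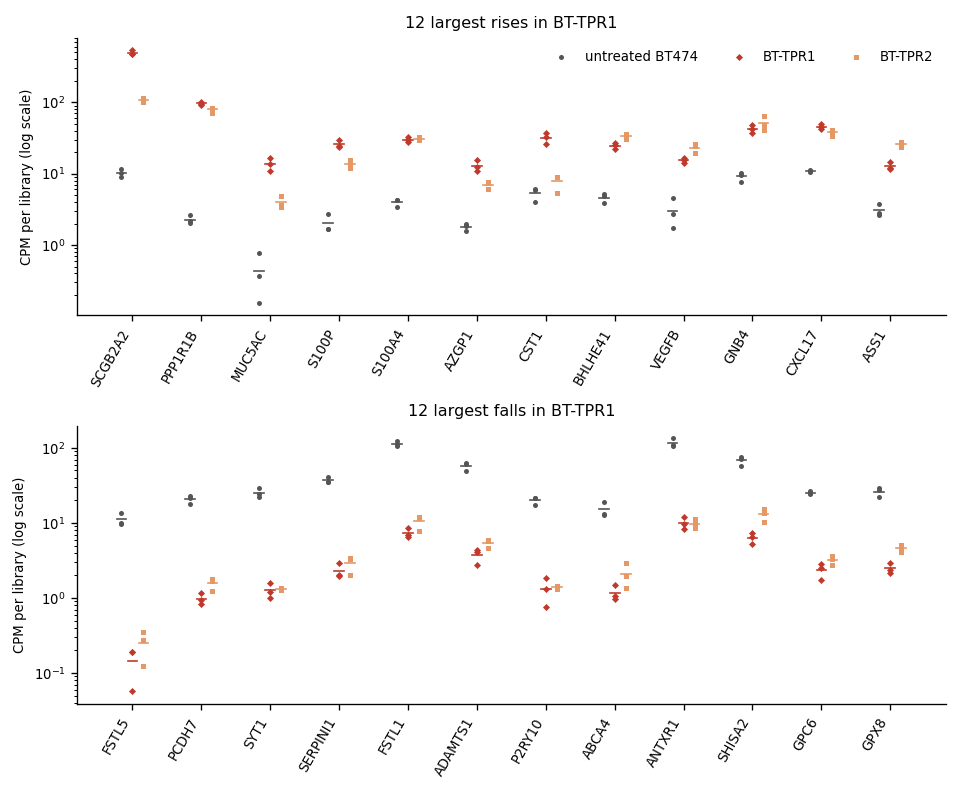
Levels of the 12 genes that rose most and the 12 that fell most in BT-TPR1 against untreated BT474. Each point is 1 library (CPM, log axis) of untreated BT474, BT-TPR1 or BT-TPR2, and horizontal bars are group means; SCGB2A2 sits at 8.89 to 11.5 CPM in untreated cells, 472 to 535 CPM in BT-TPR1 and 102 to 116 CPM in BT-TPR2.

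The genes of HER2, which the antibodies bind, and of its partner receptors had smaller changes than the genes above. ERBB2 (chr17:39687914-39730426) stood at 10350.0, 6673 and 7532 CPM in untreated cells and at 7176, 4580.0 and 6004 CPM in BT-TPR1. The libraries overlapped, and the change of -0.47 ± 0.24 (SE, adjusted p = 0.154) did not pass. With replicate number as a block it was -0.46 and passed (adjusted p = 0.00685), as it did with the GC correction (adjusted p = 0.0159), over a range of 0.00309 to 0.53 in the alternatives. EGFR, the receptor of epidermal growth factor, stood at 46.6, 42.4 and 46.6 CPM in untreated cells and 78.1, 64.2 and 94 CPM in BT-TPR1, and rose, with a change of 0.801 ± 0.13 (SE, adjusted p = 0.000164) with every BT-TPR1 library above every untreated one. The changes of ERBB3, which encodes the kinase-impaired receptor HER3, and of ERBB4 were -0.13 ± 0.12 and 0.196 ± 0.15 (SE) and did not pass. ERBB3 stood at 551, 522 and 526 CPM and 491, 424 and 545 CPM, and scaling by library size alone turned its change to 0.01. ERBB4 stood at 14.01, 17.5 and 13.7 CPM and 16.8, 18.7 and 16.3 CPM, with overlap.

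Of 9 tested genes of HER ligands and the proteases that release them, 1 rose and 4 fell. AREG, amphiregulin, a ligand of EGFR, stood at 12.2, 20.01 and 14.3 CPM in untreated cells and 3.85, 4.97 and 5.06 CPM in BT-TPR1 (-1.75 ± 0.23, SE). ADAM10, a protease that sheds several of these ligands from the membrane, went from 235, 328 and 247 CPM to 125, 134 and 158 CPM (-0.96 ± 0.14, SE). TGFA, another EGFR ligand, went the other way, from 11.7, 13.3 and 11.6 CPM to 17.9, 17.8 and 20.1 CPM (0.61 ± 0.11, SE). None of these 3 genes overlapped between the groups, but they were picked among called genes, and 40.7% of all tested genes had no overlap. The median change of the 9 was -0.851.

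BT474 carries extra copies of several chromosome segments, and genes of 3 of them were followed. Of all tested genes 12.9% rose and 14.4% fell. Of 17 tested genes around ERBB2 at 17q12, PPP1R1B and MIEN1 rose and ORMDL3 fell, with a list median of -0.11. The ORMDL3 call (adjusted p = 0.0323) was lost on omission of untreated replicate 1 (adjusted p = 0.163) or of BT-TPR1 replicate 2 or 3 (0.135 and 0.0589) and by library size alone (0.0531), range 0.000111 to 0.163. With the replicate block the counts were 3 higher and 6 lower, with the GC correction 5 and 6, and by library size alone 2 and 0 with a median of 0.044. MIEN1, a small membrane-associated gene next to ERBB2, stood at 154, 119.6 and 155 CPM in untreated cells and 244, 242 and 239.6 CPM in BT-TPR1 (0.76 ± 0.11, SE). The rise of PPP1R1B thus stood beside neighbours whose changes lay between -0.811 and 0.76. Of 17 tested genes of the 20q13 segment, 6 rose and 0 fell, with a median of 0.256. BCAS1, a gene named for its amplification in breast cancer, stood at 204, 226 and 228 CPM and 442, 526 and 538 CPM (1.19 ± 0.12, SE), and the mitotic kinase gene AURKA was at 193, 207 and 239 CPM and 281, 331 and 319 CPM (0.55 ± 0.11, SE). Among 15 tested genes of 17q23, 1 rose and 2 fell, and with the replicate block 5 and 4. There TUBD1, delta-tubulin, was higher (0.58) and VMP1, a membrane protein of autophagy, was lower (-0.62).

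Other receptor tyrosine kinases and their ligands, through which cells can signal past HER2, held falls and no rises. Of 19 tested members, 0 rose and 10 fell, against 12.9% and 14.4% of all tested genes, and the median change was -0.554. GFRA1, the co-receptor of RET for glial-derived growth factors, stood at 90.5, 85.8 and 80.3 CPM in untreated cells and 14.4, 11.8 and 14.2 CPM in BT-TPR1 (-2.67 ± 0.13, SE, adjusted p = 4.33e-11). RET, the kinase that GFRA1 serves, stood at 282, 218 and 207 CPM and 132, 92.7 and 111 CPM (-1.07 ± 0.19, SE). The ephrin receptor genes EPHA2 and EPHA4 stood at 31.2, 20.2 and 16.2 and 35.4, 37.1 and 36.8 CPM in untreated cells and at 4.94, 3.901 and 5.13 and 12.4, 12.96 and 14.6 CPM in BT-TPR1. Their changes were -2.27 ± 0.26 and -1.45 ± 0.14 (SE), and none of these receptors overlapped between the groups. FGFR1 and IGF1R, receptors of fibroblast growth factors and of insulin-like growth factor, had changes of -0.99 and -0.78, and MET, the hepatocyte growth factor receptor, was at 0.14 and did not pass.

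Of 24 tested genes of the PI3K and AKT pathway, 5 rose and 2 fell, against 12.9% and 14.4% of all tested genes. With the replicate block 11 rose and 5 fell, against 4102 and 4262 of all 17650. PDK1, a kinase of pyruvate dehydrogenase and not of AKT, stands on this list and on the hypoxia list and is counted among the 5 rises. It rose by 0.93 ± 0.17 (SE). RHEB, the GTPase that activates mTORC1, stood at 12.03, 10.7 and 12.02 CPM in untreated cells and 16.3, 17.8 and 16.8 CPM in BT-TPR1 (0.55 ± 0.15, SE). PIK3CA, the catalytic subunit that is mutated in many breast cancers, changed by 0.48 ± 0.18 (SE, adjusted p = 0.0587) and did not pass. It passed with the block (adjusted p = 7.8e-05, range over alternatives 7.18e-05 to 0.218). Of 24 tested targets of FOXO factors, which AKT holds in the cytoplasm, 6 rose and 3 fell, against the same 12.9% and 14.4%. MXI1, an antagonist of MYC, stood at 3.85, 3.93 and 5.26 CPM and 13.3, 16.2 and 15.9 CPM (1.79 ± 0.24, SE), and BCL2L11, the apoptosis activator BIM, at 40.05, 35.9 and 41.97 CPM and 80.2, 83.05 and 75.5 CPM (1.02 ± 0.12, SE).

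Genes that report on ERK activity held more falls than rises. Of 20 tested feedback inhibitors and ETS factors 1 rose and 5 fell, against 12.9% and 14.4% of all tested genes, and 1 and 9 with the replicate block. FOS, an immediate early transcription factor gene, stood at 9.06, 7.34 and 8.94 CPM in untreated cells and 2.13, 1.82 and 1.41 CPM in BT-TPR1 (-2.23 ± 0.25, SE). DUSP5, a phosphatase of nuclear ERK, went from 9.23, 7.96 and 9.66 CPM to 16.4, 15.6 and 15.6 CPM (0.82 ± 0.13, SE). Both were separated between the groups, in opposite directions.

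Of 18 tested steroid receptors and luminal transcription factors 2 rose, 4 fell and 12 did not pass, with a median of 0.07. Of all tested genes 12.9% rose and 14.4% fell. With the replicate block 5 rose and 6 fell, and by library size alone 2 and 2. GATA3, a defining factor of the luminal lineage, stood at 191, 163 and 180.2 CPM in untreated cells and at 92.3, 76.3 and 74.5 CPM in BT-TPR1 (-1.14 ± 0.11, SE, adjusted p = 7.99e-07). FOXA1, which opens chromatin for the estrogen receptor, stood at 518, 486 and 478 CPM and 321, 326 and 304 CPM (-0.64 ± 0.09, SE). ESR1, the gene of the estrogen receptor, had 75.3, 81.1 and 88.1 CPM in untreated cells and 58.7, 57.9 and 55.8 CPM in BT-TPR1 and fell (-0.51 ± 0.101, SE, adjusted p = 0.00119), a call lost when libraries were scaled by size alone (adjusted p = 0.0838 in a range of 8.69e-07 to 0.0838). NR3C1, the glucocorticoid receptor gene, rose from 6.04, 8.74 and 7.89 CPM to 16.2, 18.9 and 18.6 CPM (1.24 ± 0.17, SE), as did ELF5, a factor of alveolar breast cells (0.904 ± 0.11, SE). KRT7, KRT8, KRT18 and KRT19 had changes between -0.084 and 0.201, and 0 of the 4 passed.

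Targets of the estrogen receptor fell more often than they rose. Of 29 tested targets 2 rose and 14 fell, with a median of -0.325. AGR3, a secreted protein gene of luminal cells, stood at 14.6, 22.9 and 14.6 CPM in untreated cells and 3.22, 2.83 and 3.14 CPM in BT-TPR1 (-2.497 ± 0.21, SE). STC2, stanniocalcin, stood at 454, 408 and 355 CPM and 104, 87.5 and 112 CPM (-2.005 ± 0.12, SE, adjusted p = 1.06e-09). The cationic amino acid transporter gene SLC7A2 was at 158, 192 and 160.5 CPM and 63.8, 59.3 and 70.4 CPM (-1.4 ± 0.12, SE). No library of BT-TPR1 reached the untreated range for these 3 genes. PGR, the progesterone receptor gene and itself a target, stood apart from them at 451, 540.0 and 573 CPM in untreated cells and 663, 784 and 673 CPM in BT-TPR1. Its change of 0.44 ± 0.17 (SE, adjusted p = 0.0569) did not pass, and it passed with the replicate block (adjusted p = 0.000369, range 0.000369 to 0.22). GREB1, a widely used estrogen target, was at 0.03 and did not pass.

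Of 17 tested genes typical of apocrine cells and of breast secretions 11 rose and 1 fell, with a median of 1.076. SCGB1D2, lipophilin B, which pairs with mammaglobin in secretions, stood at 9.06, 6.31 and 7.304 CPM in untreated cells and 30.4, 26.4 and 29.7 CPM in BT-TPR1 (1.93 ± 0.17, SE). ALOX15B, an arachidonate lipoxygenase of apocrine epithelium, stood at 70.3, 56.5 and 63.8 CPM and 191, 170.3 and 172 CPM (1.49 ± 0.103, SE, adjusted p = 5.77e-09). Each was higher in all 3 BT-TPR1 libraries. The member called lower, named after its values were seen, was CLU, clusterin, a secreted chaperone, at 488, 452 and 403 CPM and 234, 179.6 and 247 CPM (-1.02). MUCL1, a small breast mucin, was at -0.52 and did not pass. Of 12 tested S100 genes 7 rose and 0 fell, with a median of 0.981, and besides S100P and S100A4 these included S100A6 (1.27 ± 0.19, SE) and S100A14 (1.04 ± 0.102, SE). S100A6 stood at 158, 104 and 119.8 CPM and 354, 299 and 269 CPM, and S100A14 at 229, 193 and 255 CPM and 427, 477 and 490.0 CPM.

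Adhesion genes fell in several families. Of 20 tested genes of neuronal adhesion and synapses, 0 rose and 13 fell, with a median of -1.32. Besides SYT1 and SERPINI1 these included NLGN4X, a neuroligin, at 24.9, 24.1 and 23.1 CPM in untreated cells and 2.93, 2.71 and 2.88 CPM in BT-TPR1 (-3.08 ± 0.14, SE, adjusted p = 1.12e-11). CADM2, an immunoglobulin-type adhesion gene, was at 14.3, 17.4 and 12.6 CPM and 1.897, 2.14 and 1.86 CPM (-2.904 ± 0.22, SE). Of 14 tested protocadherins and cadherins, 2 rose and 8 fell, with a median of -1.047. PCDH19 stood at 34.8, 32.8 and 34.8 CPM and 5.63, 5.29 and 4.55 CPM (-2.73 ± 0.17, SE), while PCDH1 was the other way at 33.7, 22.2 and 22.5 CPM and 56.7, 35.5 and 50.8 CPM (0.87 ± 0.23, SE). None of the 4 genes overlapped between the groups.

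Among 14 tested mesenchymal genes 2 rose and 5 fell. VIM, the intermediate filament vimentin, stood at 15.99, 13.5 and 13.3 CPM in untreated cells and 2.36, 1.26 and 1.79 CPM in BT-TPR1 (-2.97 ± 0.18, SE, adjusted p = 8.95e-10). CDH2, N-cadherin, stood at 20.3, 22.8 and 24.6 CPM and 6.496, 6.04 and 7.82 CPM (-1.73 ± 0.18, SE). S100A4, often listed with these genes, rose as given above. Of 24 tested genes of epithelial adhesion 0 rose and 7 fell, with a median of -0.452. The counts were 2 and 13 with the replicate block and 3 and 11 with the GC correction. The desmosomal cadherin genes DSG2 and DSC2 stood at 302, 374 and 309 and 213, 282 and 209 CPM in untreated cells and 135, 130.0 and 163 and 128, 129.7 and 158 CPM in BT-TPR1 (-1.202 ± 0.12 and -0.77 ± 0.13, SE). CDH1, E-cadherin, changed by -0.34 and did not pass. Epithelial and mesenchymal adhesion genes both held falls.

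Collagens, laminins and integrins held 3 rises and 12 falls among 29 tested, with a median of -0.656, and 4 and 21 with the replicate block. COL12A1, a collagen at fibril surfaces, stood at 881, 1075 and 899 CPM in untreated cells and 384, 371 and 413 CPM in BT-TPR1 (-1.29 ± 0.14, SE). LAMB1, a laminin chain of basement membranes, stood at 157, 158 and 130.3 CPM and 71.2, 58.3 and 72.3 CPM (-1.14 ± 0.12, SE), and its receptor subunit ITGB1 at 562, 821 and 626 CPM and 294, 292 and 372 CPM (-1.07 ± 0.19, SE). Of the 3 members called higher, named after their values were seen, ITGB6, LAMB3 and LAMA3 were at 0.78, 0.89 and 1.695. Of 20 tested matrix proteases and inhibitors 1 rose and 9 fell, with a median of -1.225. MMP16, a membrane-type metalloproteinase, was at 34.2, 42.5 and 31.8 CPM and 7.53, 11.6 and 10.1 CPM (-1.896 ± 0.16, SE), and SERPINE2, protease nexin, at -1.24 ± 0.17 (SE).

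The TGF-beta, Wnt and Notch lists each held more falls than rises. Of 25 tested genes of the TGF-beta and BMP pathway 1 rose and 11 fell, with a median of -0.354. ID1 and ID3, inhibitors of differentiation that BMP signals induce, stood at 24.9, 13.6 and 12.4 and 15.8, 8.32 and 10.2 CPM in untreated cells and 4.66, 2.58 and 3.27 and 3.05, 1.89 and 1.67 CPM in BT-TPR1 (-2.27 ± 0.29 and -2.36 ± 0.25, SE). The ligand gene BMP4 stood at 10.99, 8.64 and 8.39 CPM and 4.02, 3.08 and 3.33 CPM (-1.42 ± 0.205, SE), and SMAD6, an inhibitor within the pathway, at -1.04 ± 0.15 (SE). In both ID genes replicate 1 was the highest library of each group. Of 25 tested genes of the Wnt pathway 1 rose and 11 fell, with a median of -0.434. The Wnt receptor gene FZD1 stood at 35.1, 34.6 and 34.8 CPM and 17.3, 13.4 and 17.6 CPM (-1.11 ± 0.17, SE), and LGR4, a receptor of R-spondins, at 63.7, 75.03 and 66.1 CPM and 37.7, 41.97 and 48.8 CPM (-0.67 ± 0.12, SE). Of 18 tested genes of the Notch pathway 1 rose and 7 fell, 1 and 11 with the replicate block and 1 and 4 by library size alone. HEY2, a target of Notch, stood at 17.6, 17.6 and 18.5 CPM and 8.68, 10 and 8.91 CPM (-0.96 ± 0.17, SE). NOTCH1 was lower (-1.02 ± 0.33, SE, adjusted p = 0.0292), but this call ended without untreated replicate 1 (adjusted p = 0.192) or BT-TPR1 replicate 2 or 3 (0.127 and 0.114), range 5.22e-07 to 0.192.

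Chaperones of the endoplasmic reticulum held more falls than rises, and the heat shock list held rises and, without the replicate block, no falls. The reticulum folds secreted and membrane proteins, and an unfolded protein load there activates the factors ATF6, XBP1 and ATF4. Heat shock factor drives the cytosolic chaperones. Of 24 tested genes of the reticulum and of the ATF4 response, 2 rose and 10 fell (median -0.18), and 2 and 11 with the replicate block. Of 14 tested heat shock genes 7 rose and 0 fell (median 0.509), and 8 and 1 with the block. HSPA5, the chaperone BiP of the reticulum, stood at 1041, 1349 and 1041 CPM in untreated cells and 499, 471 and 613 CPM in BT-TPR1 (-1.12 ± 0.14, SE, adjusted p = 1.32e-05). SEL1L, a subunit of the complex that sends misfolded proteins out of the reticulum, stood at 552, 759 and 611 CPM and 290.4, 318 and 369.8 CPM (-0.97 ± 0.15, SE), and DNAJB9, a BiP cofactor, at 30.1, 43.3 and 30.1 CPM and 16.9, 15.98 and 19.4 CPM (-0.99 ± 0.14, SE). HSP90B1 and XBP1 had changes of -0.81 ± 0.17 and -0.398 ± 0.11 (SE). ASNS, asparagine synthetase and an ATF4 target, was at -0.92 ± 0.09 (SE), while ATF4 itself was at 0.32.

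On the cytosolic side DNAJB1, a heat shock cofactor of HSP70, stood at 120.4, 112 and 143 CPM in untreated cells and 209, 205 and 203 CPM in BT-TPR1 (0.71 ± 0.09, SE, adjusted p = 1.24e-05). DNAJA1, a second such cofactor, stood at 157, 220.0 and 238 CPM and 319.5, 376 and 353 CPM (0.77 ± 0.17, SE). HSPA8, the constitutive HSP70, was at 1294, 1529 and 1892 CPM and 2183, 2164 and 2317 CPM (0.499 ± 0.16, SE), and HSPD1, which works in mitochondria, at 0.69 ± 0.13 (SE). The groups did not overlap for DNAJA1, DNAJB1 and HSPD1. HSPB1 held the largest rise of the list at 1.164 (adjusted p = 0.0342), a call that 4 of 17 alternatives ended (range 8.71e-12 to 0.167). The genes of cytosolic HSP90, HSP90AA1 and HSP90AB1, were at -0.25 and 0.01 and did not pass.

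Promoters of these lists were read from RefSeq, assembly GRCh38.p14, to show the elements through which such factors bind in members that moved together. The ER stress response element was searched as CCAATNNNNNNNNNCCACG on both strands of the 250 bases before the gene start, where N is any base. It occurred in 3 of 23 tested members with a promoter (HSPA5, HSP90B1 and XBP1), against 0.074% of 35116 promoters of the same length and 0.139% of 10069 promoters of tested genes. The heat shock element, GAANNTTCNNGAA on both strands, occurred in HSPA8 alone of 13 tested members with a promoter, against 0.441% and 0.288%. The sterol regulatory element, TCACNCCA on both strands, occurred in MSMO1, MVK and SREBF2 of 18 cholesterol genes with a promoter, against 3.2% and 2.64%. A match describes letters and is no measurement of binding. The promoters of 5 of these genes follow, 5′ to 3′ along the gene's strand and ending at the base before its start, with each match in capitals. They are HSPA5 (chr9:125241344-125241593, minus strand), HSP90B1 (chr12:103930160-103930409, plus), XBP1 (chr22:28800570-28800819, minus), HSPA8 (chr11:123062137-123062386, minus) and MSMO1 (chr4:165327419-165327668, plus), and a match on the other strand shows the reverse complement of the element.
HSPA5: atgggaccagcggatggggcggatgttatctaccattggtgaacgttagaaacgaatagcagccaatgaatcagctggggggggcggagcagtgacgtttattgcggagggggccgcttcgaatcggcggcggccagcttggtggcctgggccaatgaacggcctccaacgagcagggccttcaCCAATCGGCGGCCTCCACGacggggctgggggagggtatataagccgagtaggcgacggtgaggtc
HSP90B1: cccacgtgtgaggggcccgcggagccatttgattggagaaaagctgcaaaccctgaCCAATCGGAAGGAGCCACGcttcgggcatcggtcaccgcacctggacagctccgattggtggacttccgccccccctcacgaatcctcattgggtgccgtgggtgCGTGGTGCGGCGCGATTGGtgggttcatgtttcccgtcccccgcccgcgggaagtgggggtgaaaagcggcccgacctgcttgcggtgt
XBP1: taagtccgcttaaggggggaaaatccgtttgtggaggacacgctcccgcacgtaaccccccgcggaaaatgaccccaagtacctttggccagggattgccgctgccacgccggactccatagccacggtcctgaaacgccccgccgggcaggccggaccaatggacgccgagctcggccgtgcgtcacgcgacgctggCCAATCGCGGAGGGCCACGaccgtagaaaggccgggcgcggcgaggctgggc
HSPA8: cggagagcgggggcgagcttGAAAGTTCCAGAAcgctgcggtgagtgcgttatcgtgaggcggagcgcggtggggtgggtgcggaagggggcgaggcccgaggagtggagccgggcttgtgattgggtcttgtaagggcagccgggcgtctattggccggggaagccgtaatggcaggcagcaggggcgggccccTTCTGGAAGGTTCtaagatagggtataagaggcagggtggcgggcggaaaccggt
MSMO1: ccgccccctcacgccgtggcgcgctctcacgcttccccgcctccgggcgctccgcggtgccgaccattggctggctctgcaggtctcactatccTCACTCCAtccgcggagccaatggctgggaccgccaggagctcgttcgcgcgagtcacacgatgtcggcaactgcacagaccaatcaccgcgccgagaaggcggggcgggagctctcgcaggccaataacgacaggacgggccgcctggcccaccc

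HSP90B1 and HSPA8 each hold 2 matches and the others 1. The 3 promoters with an ER stress response element belong to genes called lower, and the promoter with heat shock elements to a gene called higher. MSMO1, a C4-methylsterol oxidase of cholesterol synthesis, had a change of -0.699 ± 0.17 (SE, adjusted p = 0.00512), and MVK and SREBF2 had changes of -0.401 and -0.52 that did not pass. Other members without a match, such as SEL1L and DNAJB1, moved as well.

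Of 25 tested genes of cholesterol synthesis and uptake 0 rose and 16 fell, with a median of -0.669. The sterol reductase gene TM7SF2 stood at 509, 275 and 305 CPM in untreated cells and 181, 120.2 and 132 CPM in BT-TPR1 (-1.33 ± 0.298, SE). It did not overlap between the groups, although untreated replicate 1 was well above the other untreated libraries. Of 21 tested genes of fatty acid synthesis 2 rose and 8 fell, with a median of -0.329. The fatty acid elongase gene ELOVL6 stood at 82.6, 108 and 87.3 CPM and 26.7, 28.3 and 33.1 CPM (-1.66 ± 0.14, SE), and the desaturase gene FADS1 at 386, 416 and 370.0 CPM and 132, 128 and 159 CPM (-1.48 ± 0.13, SE, adjusted p = 1.04e-07). ELOVL5, another elongase, was at -0.998 ± 0.13 (SE), whereas FASN, fatty acid synthase, was at -0.39 and did not pass.

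Lists of metal and amino acid transporters held falls and no rises. Of 13 tested zinc transporters and metallothioneins 0 rose and 8 fell, with a median of -0.4. SLC39A8, which imports zinc and manganese, stood at 52.96, 64.8 and 48.7 CPM in untreated cells and 6.44, 7.74 and 9.68 CPM in BT-TPR1 (-2.804 ± 0.17, SE, adjusted p = 6.2e-10). SLC30A1, the zinc exporter of the plasma membrane, stood at 67.5, 80.3 and 59.1 CPM and 28.9, 27.8 and 32.04 CPM (-1.22 ± 0.13, SE). Of 16 tested amino acid transporters 0 rose and 7 fell, with a median of -0.475. SLC7A11, the cystine importer, was at 8.08, 11.5 and 6.53 CPM and 2.42, 2.83 and 3.33 CPM (-1.61 ± 0.25, SE) and SLC7A1, a carrier of arginine and lysine, at 252, 191 and 196 CPM and 117, 96.5 and 119 CPM (-0.94 ± 0.12, SE). Of 17 tested ABC transporters 1 rose and 5 fell, against 12.9% and 14.4% of all tested genes, and with the replicate block 1 and 9. The one that rose was ABCC2, an exporter of drug conjugates, at 59.6, 62 and 53.8 CPM and 105, 94.6 and 111 CPM (0.82 ± 0.11, SE).

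Genes of hypoxia and glycolysis rose more often than they fell. Of 23 tested members 10 rose and 3 fell, against 12.9% and 14.4% of all tested genes, with a median of 0.25. NDRG1, which hypoxia induces, stood at 41.04, 29.5 and 39.7 CPM in untreated cells and 152, 89.7 and 140.1 CPM in BT-TPR1 (1.79 ± 0.23, SE). BHLHE40, a repressor related to BHLHE41, stood at 5.38, 4.19 and 5.49 CPM and 14.4, 7.99 and 12.9 CPM (1.23 ± 0.23, SE), and LDHA, lactate dehydrogenase A, at 372, 342 and 416 CPM and 620.3, 584 and 656 CPM (0.72 ± 0.11, SE). SLC2A1, the glucose transporter GLUT1, went the other way, from 263, 166 and 177 CPM to 134, 80.5 and 111 CPM (-0.9 ± 0.21, SE). VEGFA, the hypoxia-induced relative of VEGFB, was at 0.08 and did not pass.

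The MHC class I pathway shows peptides to T cells. Of its 18 listed genes 9 were tested, of which 0 rose and 7 fell, with a median of -1.01. B2M, the invariant light chain, stood at 34.4, 27.04 and 21.1 CPM in untreated cells and 16.1, 12.7 and 12.1 CPM in BT-TPR1 (-1.01 ± 0.26, SE, adjusted p = 0.00648), with no overlap. HLA-C stood at 56.5, 55.2 and 49.95 CPM and 31.8, 23.9 and 25.6 CPM (-0.99 ± 0.23, SE), a value that is uncertain because HLA genes share reads with near-identical copies. CALR and PDIA3, chaperones of peptide loading that also serve the reticulum at large, were at -1.13 ± 0.16 and -1.01 ± 0.18 (SE). Of 23 tested interferon-stimulated genes 2 rose and 4 fell, against 12.9% and 14.4% of all tested genes, and with the replicate block 3 and 10. MX2, an antiviral GTPase, was at 37.4, 35.2 and 38.3 CPM and 57.03, 53.7 and 55.4 CPM (0.58 ± 0.09, SE), and OAS3, a sensor of double-stranded RNA, at 11.5, 8.53 and 10.7 CPM and 4.66, 4.84 and 5.45 CPM (-1.04 ± 0.15, SE). Of 11 tested chemokines and cytokines 2 rose and 4 fell. CXCR4, the receptor of CXCL12, stood at 21.7, 18.4 and 16.97 CPM and 54.96, 39.5 and 57.9 CPM (1.42 ± 0.22, SE), and TNFSF15, a cytokine of the tumour necrosis factor family, at 28.9, 28.1 and 20.96 CPM and 6.899, 7.36 and 6.66 CPM (-1.895 ± 0.17, SE).

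Of 3 cell cycle lists, those of DNA replication and of G1 held more falls than rises. Rises and falls of the mitosis list were near the shares over all tested genes. MKI67, the proliferation marker Ki-67, stood at 104, 167 and 161 CPM in untreated cells and 115, 132 and 150.1 CPM in BT-TPR1, with overlap (-0.12 ± 0.21, SE, adjusted p = 0.699). Its sign turned by library size alone (0.01) and without untreated replicate 2 (0.03). Of 38 tested mitosis genes 4 rose and 5 fell, near the 12.9% and 14.4% of all tested genes, with a median of -0.097. By library size alone the counts were 5 and 0 with a median of 0.043, and with the replicate block 7 and 8. Of 41 tested DNA replication genes 0 rose and 11 fell (12.9% and 14.4% of all tested genes), with a median of -0.163, against 0 and 6 by library size alone and 3 and 18 with the block. POLE2, a subunit of DNA polymerase epsilon, stood at 14.1, 16.9 and 14.5 CPM and 7.65, 9.56 and 9.36 CPM (-0.77 ± 0.14, SE), and the flap endonuclease gene FEN1 at 160.4, 131 and 146 CPM and 103, 92.4 and 94.1 CPM (-0.596 ± 0.12, SE). Among G1 cyclins, their kinases and inhibitors 2 of 18 tested rose and 5 fell, and 2 and 6 with the block and by library size alone 2 and 1. The falls of CCNE2 and E2F3 lost the call under 8 and 4 of 17 alternatives. The rise of CDK6 lost it under 4, and that of CDKN2D under 0. CCND1, cyclin D1, was lower at -0.28 ± 0.098 (SE, adjusted p = 0.0398), a call that 9 of 17 alternatives ended, among them the omission of untreated replicate 1 or 2 (adjusted p = 0.295 and 0.0656) and of BT-TPR1 replicate 1, 2 or 3 (0.0678, 0.0951 and 0.131), range 0.00842 to 0.494.

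Targets of p53 were split evenly, with 5 of 24 tested rising and 5 falling, against 12.9% and 14.4% of all tested genes. BTG2, an antiproliferative gene, stood at 31.5, 33.1 and 37.8 CPM in untreated cells and 94.2, 97.3 and 96.8 CPM in BT-TPR1 (1.49 ± 0.11, SE, adjusted p = 7.89e-09), and ZMAT3, an RNA-binding regulator, at 8.296, 7.86 and 8.53 CPM and 16.6, 16.9 and 16.9 CPM (1.03 ± 0.15, SE). TNFRSF10B, a death receptor, was lower at -0.69 ± 0.18 (SE, adjusted p = 0.00802), a call that ended without untreated replicate 1 (adjusted p = 0.0649, range 1.79e-05 to 0.0649).

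**Figure D2:**
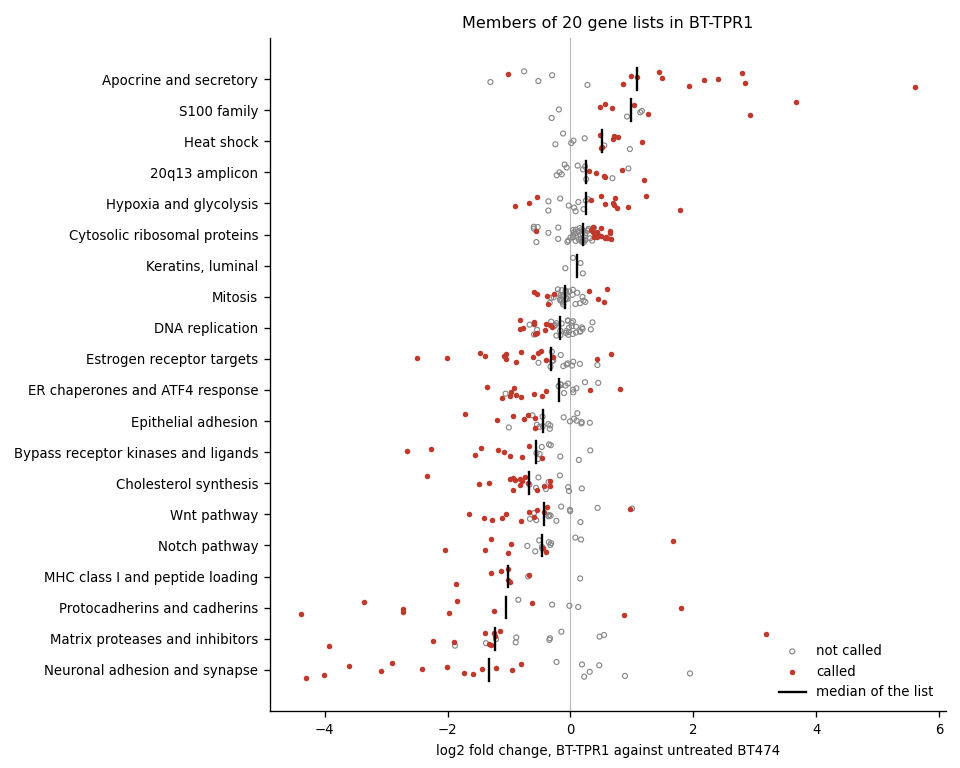
Log2 fold change of BT-TPR1 against untreated BT474 for the tested members of 20 gene lists. Each point is 1 gene, filled where called and open where not, and vertical bars are list medians, from 1.076 for apocrine and secretory genes to -1.32 for neuronal adhesion and synapse genes.

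Changes were also followed along chromosomes, a summary chosen after values were seen. Chromosome 14 stood lowest: of 586 tested genes 33 rose and 214 fell, 36.5% against 14.4% of all tested genes, and the median change was -0.344. Of these 586 genes 434 (74.1%) were below 0. The median was -0.32 with the GC correction, -0.338 with the replicate block and -0.201 by library size alone. In runs of 25 neighbouring tested genes along the chromosome, the running median of BT-TPR1 was below 0 in 554 of 562 runs, with a range of -0.804 to 0.192. The same runs were below 0 in 545 for BT-TPR2, 113 for BT-TR1 and 353 for BT-TR2, each against the same untreated libraries. FOXA1, SEL1L, FOS, BMP4 and POLE2, which were lower as given above, lie on this chromosome. The changes of the genes next to each of them were not examined.

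**Figure D3:**
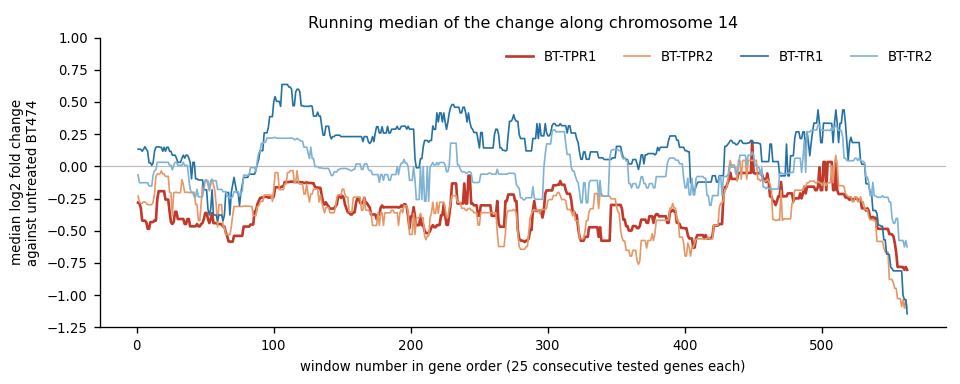
Running median of the log2 fold change over 25 neighbouring tested genes along chromosome 14, in gene order, for the 4 resistant pools against untreated BT474. The lines of BT-TPR1 and BT-TPR2 lie below 0 in 554 and 545 of 562 runs, and that of BT-TR1 in 113. Adjacent runs overlap in most of their genes.

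Genes of chromosome 14 were also tested directly between pools. Against the mean of BT-TR1 and BT-TR2, 229 of its 586 genes were lower in BT-TPR1 (39.1%, against 8.8% of all tested genes) and 7 higher, with a median difference of -0.371. Against BT-TPR2, 9 were lower and 12 higher, with a median of 0.003. Chromosome 15 differed between the dual-resistant pools: its median change was -0.161 in BT-TPR1, with 129 of 566 genes falling (22.8%) and 40 rising, and 0.013 in BT-TPR2. Between them 29 genes of chromosome 15 were lower in BT-TPR1 (5.12%, against 1.64% of all tested genes) and 2 higher, with a median of -0.174, and 95 were lower with the replicate block, against 5.85% of all tested genes. B2M, PDIA3, ADAM10, SMAD6 and SLC30A4 lie on chromosome 15. On chromosome 2, 263 of 1187 genes rose (22.2%) and 110 fell in BT-TPR1, and its median stood at 0.165 in BT-TPR1, 0.178 in BT-TPR2, 0.225 in BT-TR1 and 0.101 in BT-TR2. DNA copy number was not measured in these files, and its part in the shifts was not tested.

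**Figure D4:**
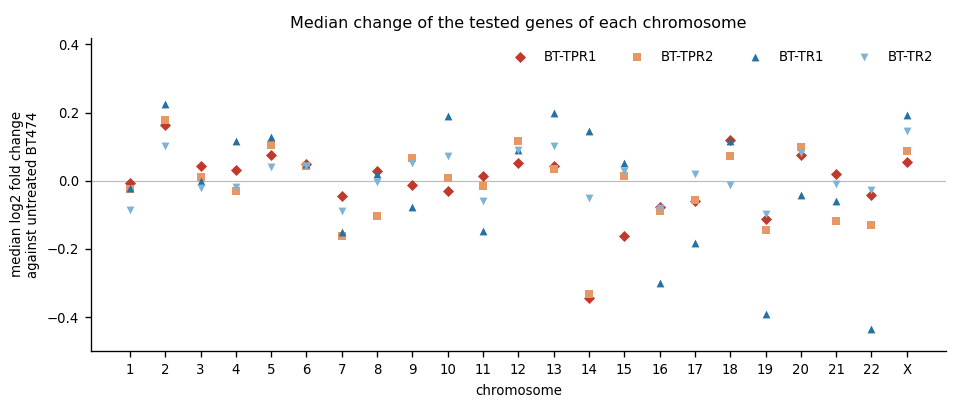
Median log2 fold change of the tested genes of each chromosome in the 4 resistant pools, each against untreated BT474. Chromosome 14 is at -0.344 in BT-TPR1, -0.332 in BT-TPR2, -0.051 in BT-TR2 and 0.145 in BT-TR1. Chromosome 15 is at -0.161 in BT-TPR1 and 0.013 in BT-TPR2.

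Of 16970 overlapping runs of 25 neighbouring genes over all chromosomes, the highest median was 0.806, on chromosome 6 from 25140003 to 26253710, in the histone gene cluster. There 7 genes rose and 1 fell, among them HIST1H1C, a linker histone, at 4.56, 7.34 and 8.302 CPM in untreated cells and 17.9, 17.2 and 14.8 CPM in BT-TPR1 (1.302 ± 0.202, SE). HIST1H2AC and HIST1H2BD were at 1.08 ± 0.12 and 0.96 ± 0.14 (SE). Histone genes share reads with near-identical copies, so these single values are uncertain. A run from 27122657 to 28218634 in the same cluster had a median of 0.492, with 5 rises and 1 fall. Over 50 genes in place of 25 these medians were 0.478 and 0.108. The lowest median, -0.804, lay near the end of chromosome 14, from 103697609 to 105470729, where 0 genes rose and 15 fell, and it was -0.69 over 50 genes. The same run was at -1.102 in BT-TPR2, -1.035 in BT-TR1 and -0.626 in BT-TR2, so here BT-TR1 was low as well. BRF1 there, a subunit of a transcription factor of RNA polymerase III, stood at 101, 85.3 and 80.3 CPM and 45.6, 31.1 and 28.8 CPM (-1.34 ± 0.22, SE). The next lowest, -0.732, ran on chromosome 6 from 129576132 to 134950122, with 3 rises and 10 falls, and was -0.163 over 50 genes.

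Tested directly against BT-TPR2, the other pool with the same resistance, BT-TPR1 differed at 609 genes (3.45%), of which 320 were higher (1.81%) and 289 lower (1.64%). The count was 2119 with the replicate block, 1362 with the GC correction and 197 with only the groups compared. It was 351 without BT-TPR1 replicate 1, 364 without BT-TPR1 replicate 2 and 371 without BT-TPR2 replicate 3. Against the mean of BT-TR1 and BT-TR2 it differed at 2680 genes (15.2%), 1127 higher (6.39%) and 1553 lower (8.8%). That count was 5897 with the replicate block and 1349 without BT-TPR1 replicate 1. Its split turned to 3065 higher and 2832 lower with the block, 1792 and 915 by library size alone, 2086 and 1805 with replicates 2 and 3 alone and 1695 and 1325 with no filter. The differences in these comparisons are between pools, while the untreated libraries entered the shared estimate of spread.

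Of 17 tested apocrine and secretory genes 4 were higher in BT-TPR1 than in BT-TPR2, 1 was lower and 12 did not pass, against 1.81% and 1.64% of all tested genes. Against the trastuzumab-resistant pools 2 were higher and 8 lower (6.39% and 8.8% of all tested genes). SCGB2A2 stood at 109, 102 and 116 CPM in the BT-TPR2 libraries, a difference of 2.19 ± 0.14 (SE, adjusted p = 3.46e-08) in favour of BT-TPR1, and at 1021 ± 72.01 and 1495 ± 159 CPM (SD, n = 3) in BT-TR1 and BT-TR2, above BT-TPR1. SCGB1D2 followed the same order of groups, with 11.9, 10.9 and 12.4 CPM in BT-TPR2, a difference of 1.298 ± 0.17 (SE), and 56.1 ± 5.14 and 98.02 ± 22.1 CPM (SD, n = 3) in the trastuzumab-resistant pools. CST1 stood at 8.84, 5.44 and 9.09 CPM in BT-TPR2 and 6.15, 4.03 and 5.85 CPM in untreated cells, and was 2.04 ± 0.26 (SE) higher in BT-TPR1. PPP1R1B, by contrast, stood at 71.4, 83.5 and 82.6 CPM in BT-TPR2 and did not pass between these pools (0.28 ± 0.14, SE, adjusted p = 0.358), and was 1.78 ± 0.12 (SE) higher than in the trastuzumab-resistant pools.

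Of the 18 tested steroid receptors and luminal factors 3 were higher and 1 lower in BT-TPR1 than in BT-TPR2, and of the 4 HER receptors 0 were higher and 0 lower. PGR stood at 155, 196 and 183 CPM in BT-TPR2, 165, 213 and 199.9 CPM in BT-TR1 and 183, 219 and 211 CPM in BT-TR2, against 663, 784 and 673 CPM in BT-TPR1. BT-TPR1 was 1.99 ± 0.17 (SE, adjusted p = 8.3e-07) higher than BT-TPR2 and 1.83 ± 0.14 (SE) higher than the trastuzumab-resistant pools, and no library of the other pools reached it. ERBB4 was 1.28 ± 0.13 (SE) higher than in the trastuzumab-resistant pools, which held 5.83 ± 1.17 and 8.54 ± 0.643 CPM (SD, n = 3). GFRA1, which had fallen in BT-TPR1, was lower still in BT-TPR2 at 3.72, 3.396 and 3.698 CPM, a difference of 1.901 ± 0.14 (SE). CXCL14, a chemokine of epithelia, stood at 32.6, 32.5 and 26.04 CPM in untreated cells, 7.01, 5.66 and 5.19 CPM in BT-TPR1 and 0.524, 0.465 and 0.313 CPM in BT-TPR2, and at 0.029 ± 0.0502 and 0.402 ± 0.3203 CPM (SD, n = 3) in BT-TR1 and BT-TR2. BT-TPR1 thus lay between untreated cells (-2.35 ± 0.25, SE) and the other 3 pools. The steroid sulfatase gene STS was lower in BT-TPR1 at 134, 138 and 156 CPM than in BT-TPR2 at 299.7, 252 and 317 CPM (-1.02 ± 0.11, SE).

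Some genes were higher or lower in BT-TPR1 than in each of untreated BT474, BT-TPR2, BT-TR1 and BT-TR2 by separate tests. There were 26 genes higher than all 4 groups and 40 lower, and 110 and 158 with the replicate block. LMO3, a LIM-domain cofactor of transcription, stood at 21.1, 24.4 and 20.9 CPM in BT-TPR1, against 7.47, 9.05 and 9.53 CPM in untreated cells and 6.98, 8.56 and 7.897 CPM in BT-TPR2. Its differences were 1.35 ± 0.14 against untreated cells, 1.498 ± 0.14 against BT-TPR2 and 2.31 ± 0.12 against the trastuzumab-resistant pools (SE). KCND2, a potassium channel gene, stood at 15.1, 13.3 and 14.03 CPM, against 5.71, 5.89 and 6.99 CPM in untreated cells and 7.505, 5.58 and 6.27 CPM in BT-TPR2. GRIK3, a glutamate receptor gene, stood at 118, 88.5 and 102 CPM, against 66.6, 58.1 and 60.7 CPM and 55.1, 41.6 and 47.4 CPM in the same order. For these 3 genes no library of BT-TPR1 overlapped the untreated ones. They were picked because they were called against untreated cells, so this adds no support, and 40.7% of all tested genes had no overlap. MUC5AC was 1.77 ± 0.28 (SE) above BT-TPR2, whose libraries held 4.89, 3.67 and 3.45 CPM. HOTAIR, a long noncoding RNA transcribed antisense to HOXC genes, was 0.9 ± 0.15 (SE) above BT-TPR2, and without a stated strand its reads cannot be told from those of its partner.

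The genes lowest in BT-TPR1 of the 5 groups included GPX8, at 2.36, 2.89 and 2.18 CPM against 4.65, 4.09 and 5.01 CPM in BT-TPR2, 22.7, 24.9 and 29.04 CPM in BT-TR1 and 18.2, 20.9 and 19.6 CPM in BT-TR2. It was -0.88 ± 0.16 (SE) below BT-TPR2 and -3.17 ± 0.14 (SE) below the trastuzumab-resistant pools. SOCS2, a feedback inhibitor of cytokine receptors, stood at 3.16, 3.84 and 4.74 CPM in BT-TPR1, 15.2, 16.4 and 16.2 CPM in untreated cells and 8.203, 8.74 and 8.84 CPM in BT-TPR2 (-1.14 ± 0.15, SE, between the dual-resistant pools). TACC1, a coiled-coil protein gene of the centrosome, stood at 23.2, 26.1 and 26.3 CPM, 48.2, 62.5 and 54.4 CPM and 39.2, 39.9 and 45.2 CPM in that order (-0.72 ± 0.14, SE). SGCB, beta-sarcoglycan, and B3GNT5, a glycosyltransferase of glycolipids, were -0.92 ± 0.19 and -0.78 ± 0.19 (SE) against BT-TPR2. In each of these 5 genes the untreated level was above that of BT-TPR1 in every library. This adds no support, because the genes were picked for being called lower than in untreated cells.

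**Figure D5:**
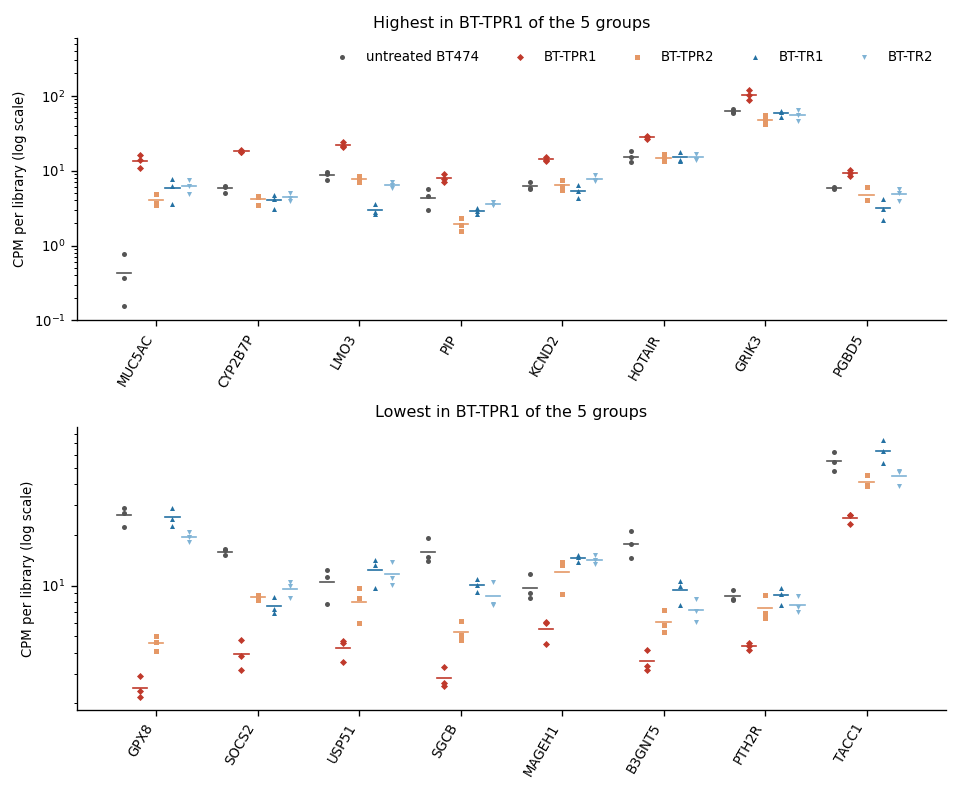
Levels of the 8 highest and 8 lowest genes that differed in BT-TPR1 from each of the other 4 groups. Each point is 1 library (CPM, log axis) and horizontal bars are group means; LMO3 sits at 20.9 to 24.4 CPM in BT-TPR1 and at 7.47 to 9.53 CPM in untreated cells, and GPX8 at 2.18 to 2.89 CPM and 22.3 to 29 CPM.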

How the data were processed

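RNA of 21 libraries in 7 groups of 3 had been sequenced by the authors. The deposited counts are raw reads per gene, made with Bowtie2 and featureCounts on hg38, per the submitters' processing notes. The deposited log2-like values are the authors' variance-stabilized counts from DESeq2, per the same notes, and served 1 alternative. Tool versions, the annotation release and strandedness are not given in the sources used here. Every column was matched to a sample by its label, and no row was without a gene.

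The counts were analysed with edgeR 4.0.16 (R 4.3.3), after filterByExpr at a minimum count of 10 and a minimum total of 15, and after TMM normalization. A single model held all 21 libraries, the acutely treated ones included, with 1 term for each group and 14 residual degrees of freedom. Comparisons used the quasi-likelihood test with Benjamini-Hochberg adjustment over all tested genes, at 0.05. A standard error is the change divided by the root of the F statistic. Counts between replicates varied 12.1 to 60.0 times more than counting error (chi-square per degree of freedom), so replicate spread set the precision. Positions and GC content came from GENCODE 29, which matched 36530 genes.

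The members, lists and tests were chosen with earlier results of these data known. Named are the 12 largest rises and falls without overlap at a mean of at least 5 CPM, 11 genes given whatever their test, up to 4 called members per list at 5 CPM, the 8 genes highest and lowest against all 4 groups, up to 4 genes opposite in the dual-resistant pools each way, and up to 3 genes per outlying window. Not every gene so named is reported, and other list members given with values were picked after their values were seen.

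Same-numbered libraries correlated in their deviations from the group means at r = 0.691, 0.355 and 0.281 (untreated BT474), 0.726, 0.487 and 0.503 (BT-TPR2), 0.732, 0.465 and 0.472 (BT-TR2) and 0.642, -0.00134 and 0.362 (BT-TR1) with BT-TPR1. Across numbers, BT-TPR1 replicates 2 and 3 correlated with untreated replicates 3 and 2 at r = 0.369 and 0.314. Against untreated BT474 only replicate 1 was thus set apart by its number, and pairing of replicates 2 and 3 was not established. With BT-TPR2 and BT-TR2, but not with BT-TR1, each BT-TPR1 library correlated most with its own number. The replicate block took the numbers as pairs throughout. Alternatives were DESeq2 1.42.0, limma 3.58.1 on the deposited log2 values, RLE or library size alone, no or a strict filter, a GC spline with 5 degrees of freedom, the replicate block, both together, only the groups compared, replicates 2 and 3 alone and each library left out. The scripts were tested on simulated data. They recovered 11 of 67 genes with a 1.5-fold change, 46 of 67 with a 2-fold and 65 of 66 with a 4-fold change. The simulated spread was the same for every gene, with no replicate or GC effect, so these rates need not hold for the real libraries.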

Additional observations from a re-analysis of the deposited data

Results flagged for a closer look

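The 2 dual-resistant pools moved in opposite directions against untreated BT474 at 7 named genes, each called in both pools and tested directly between them by edgeR. CYP2B7P, a cytochrome P450 pseudogene that shares reads with CYP2B6, stood at 18.6, 17.7 and 17.9 CPM in BT-TPR1, 6.32, 5.07 and 6.08 CPM in untreated cells and 4.54, 3.49 and 4.39 CPM in BT-TPR2, a difference of 2.13 between the pools (adjusted p = 4.19e-07). RP11-588K22.2, a noncoding RNA gene on chromosome 4, stood at 14.9, 18.6 and 14.03, 8.35, 7.81 and 8.76 and 4.13, 5.35 and 3.95 CPM in that order (difference 1.81, adjusted p = 1.45e-07). GUCY1A3, a subunit of the nitric oxide receptor guanylate cyclase on the same chromosome, stood at 34.3, 36.6 and 34.4, 18.3, 25.6 and 25.6 and 7.91, 11.3 and 10.8 CPM (difference 1.81, adjusted p = 1.2e-05). Its rise against untreated cells lost the call without untreated replicate 1 (adjusted p = 0.0935) or BT-TPR1 replicate 2 (0.0836), range 1.52e-05 to 0.0935. ENPP5, an ectonucleotide pyrophosphatase family gene, was at 37.6, 34.9 and 40.8, 21.5, 27.3 and 23.6 and 13.2, 10.2 and 14.1 CPM (difference 1.6, adjusted p = 6.69e-07).

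Lower in BT-TPR1 and higher in BT-TPR2 were ARMCX3, GRAMD2 and STS. STS, steroid sulfatase, stood at 134, 138 and 156 CPM in BT-TPR1, 222, 243 and 218 CPM in untreated cells and 299.7, 252 and 317 CPM in BT-TPR2, a difference of -1.02 (adjusted p = 1.37e-05). ARMCX3, a protein of the mitochondrial outer membrane, stood at 12.02, 11.6 and 14.7, 15.9, 21.1 and 19.1 and 28.3, 24.3 and 32.8 CPM (difference -1.16, adjusted p = 8.3e-05), and GRAMD2 at 14.1, 12.7 and 13.3, 20.2, 16.9 and 15.1 and 34.8, 27.3 and 26.8 CPM (difference -1.15, adjusted p = 3.76e-05). The fall of ARMCX3 against untreated cells lost the call without untreated replicate 2 (adjusted p = 0.0684) or BT-TPR1 replicate 2 (0.0566), range 9.84e-05 to 0.091. That of GRAMD2 (-0.38) lost it without untreated replicate 1 or 2 (adjusted p = 0.27 and 0.0949) or BT-TPR1 replicate 1, 2 or 3 (0.0606, 0.145 and 0.107), range 0.00288 to 0.27. In all, 14 genes were higher in BT-TPR1 and lower in BT-TPR2 than in untreated cells, and 5 the other way.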

How the results depend on the processing

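BT-TPR1 against untreated BT474 gave 4815 calls. The count was 8364 with the replicate block, 8835 with the block and GC correction, and 3111 with only the groups compared. It lay between 3156 and 4557 when each library was left out, and between 4570 and 6894 under the other alternatives. All 4815 genes were called with the block, which thus ended no call of this comparison. BT-TPR1 against BT-TPR2 gave 609 calls. The count was 2119 with the block, 1362 with the GC correction, 2729 with both and 197 with only the groups compared, between 351 and 457 when each library was left out, and between 461 and 778 otherwise. Against the mean of BT-TR1 and BT-TR2, with which the numbers paired BT-TPR1 only for BT-TR2, there were 2680 calls. The count was 5897 with the block and 5254 with the block and GC correction, between 1349 and 3074 when each library was left out, and between 2366 and 3891 otherwise. The split of calls also turned in the other comparisons: against untreated BT474 to 3451 higher and 3443 lower with the GC correction, 4567 and 4268 with the block and GC correction and 2068 and 1943 without untreated replicate 1, and against BT-TPR2 to 634 and 728 with the GC correction, 1218 and 1511 with the block and GC correction and 206 and 241 without BT-TPR2 replicate 2. With no filter it was 1965 and 2863 against untreated BT474. Where a library was left out, edgeR pooled the spread of the remaining 2 with that of the other groups. The cause of these shifts was not tested, except that fewer samples entered the fits of only the groups compared and of a library left out.

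ERBB3 turned to 0.01 by library size alone, and MKI67 to 0.01 by library size alone, and MKI67 lay between -0.28 and 0.03 when each library was left out, with 0.03 without untreated replicate 2. Of 207 named genes 200 were called. Of these, 155 held the call under all 17 alternatives, 45 lost it under at least 1 and 0 changed direction. Genes with few counts, such as FSTL5 in BT-TPR1, are limited by depth.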

Other observations

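Of 60 tested cytosolic ribosomal protein genes 17 were higher in BT-TPR1 than in untreated BT474, 1 was lower and 42 did not pass, with a median of 0.21, against 12.9% and 14.4% of all tested genes. With the replicate block 29 were higher and 5 lower, against 4102 and 4262 of all 17650. RPL11, a large subunit protein that also binds MDM2, stood at 228, 202 and 247 CPM in untreated cells and 349, 348 and 366 CPM in BT-TPR1 (0.65 ± 0.12, SE, adjusted p = 0.000478 by edgeR). RPL14 was at 0.602 ± 0.11 (SE). Ribosomal protein genes have many processed copies that share reads, so single values are uncertain. Mitochondrially encoded genes of the respiratory chain lay below 0 in all 13 members, with changes from -0.796 to -0.259. Of these 1 passed without the block and 6 with it, and the mitochondrial share of counts was lower in every BT-TPR1 library than in every untreated one.

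Of 15 tested BCL2 family genes 2 rose and 1 fell, and with the replicate block 5 and 1, with BIM the largest rise at 1.02 ± 0.12 (SE). The shares over all tested genes, here and for the lists that follow, were 12.9% and 14.4% without the block. The BCL2 family fall was that of BCL2 (adjusted p = 0.0114), a call lost on omission of untreated replicate 2 (adjusted p = 0.0913) or of BT-TPR1 replicate 1 or 2 (0.051 and 0.0503) and by library size alone (0.103), range 2.53e-06 to 0.103. Of 8 tested genes of the aryl hydrocarbon receptor pathway 2 rose and 2 fell, and 3 and 0 by library size alone. The falls were those of AHR (adjusted p = 0.0478), whose call 10 of 17 alternatives ended, the omission of any 1 of the 6 libraries among them (range 2.14e-05 to 0.262), and TIPARP (adjusted p = 0.0144), whose call was lost on omission of untreated replicate 2 (adjusted p = 0.105) or of BT-TPR1 replicate 1 (0.0532) and by library size alone (0.113), range 5.2e-06 to 0.113. CYP1A1, which this receptor induces, stood at 5.77, 5.48 and 4.72 CPM in untreated cells, 10.8, 8.05 and 11.3 CPM in BT-TPR1 and 53.7, 32.2 and 45.3 CPM in BT-TPR2, a difference of -2.12 ± 0.17 (SE) between BT-TPR1 and BT-TPR2. NQO1, a quinone reductase, stood at 114, 123 and 137 CPM and 176, 192 and 164 CPM (0.51 ± 0.097, SE). Of 17 tested genes of drug metabolism and redox 2 rose and 3 fell, and with the block 2 and 6. GSTM3, a glutathione transferase, was at 14.1, 14.9 and 14.3 CPM and 9.66, 9.06 and 9.74 CPM (-0.61 ± 0.14, SE). Of 14 tested stem and progenitor genes 2 rose and 2 fell, with SOX9, a progenitor factor, at 27.5, 32.1 and 31.7 CPM and 47.3, 53.04 and 49.7 CPM (0.71 ± 0.12, SE), and 0.85 ± 0.12 (SE) above BT-TPR2. Of 4 tested basal and stratified keratins 1 rose, KRT80, at 23.6, 15.6 and 20.7 CPM and 34.3, 29.4 and 29.6 CPM (0.64 ± 0.14, SE).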
